A study of Mus musculus with 18 samples.

Results

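The comparison of sgPrrx1 with control fibroblasts asked which transcripts changed in 168FARN breast cancer cells when Prrx1 was deleted in the fibroblasts grown beside them. It rested on 6 of the 18 libraries of the series, chosen by the cell line, the cocultured cells and the genotype in the sample labels, with 3 libraries from WT coculture and 3 from sgPrrx1 coculture. 168FARN is a mouse breast cancer line, here carrying GFP. The fibroblasts of both groups were MMTV-CAFs, which are primary cancer-associated fibroblasts (CAFs). They came from MMTV-PyMT mice, whose mammary tumours arise from the polyoma middle T oncogene under a mammary tumour virus promoter. In WT coculture the CAFs carried the control sgNS, and in sgPrrx1 coculture they had been given a CRISPR/Cas9 guide RNA against Prrx1. Both cocultures started from 3 fibroblasts per cancer cell in hanging drops and were kept for a week as spheroids, and per the study's methods the cancer cells were then sorted by GFP before RNA was extracted. The cancer cells themselves carried no deletion in either group. Spheroids of 168FARN alone (3 libraries, no fibroblasts) served to tell transcripts that the cancer cells hold without fibroblasts from those at or near 0 there. Whether the edited CAFs were a pool or 1 clone, and whether the 3 libraries of a group came from separate cultures, is not given in the sources used here, so p-values measure the spread between these libraries, which may be technical.

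Prrx1 is a homeobox transcription factor of mesenchymal cells that is known for its part in fibroblast activation and in epithelial-mesenchymal transition (EMT). CAFs lay down collagens and other matrix, secrete growth factors and chemokines, and contract the tissue around a tumour. Cancer cells beside them respond to those ligands and to the matrix, among others through TGF-beta receptors and through YAP, a coactivator of TEAD factors. Interferons, also secreted ligands, act through factors that include Stat2 and Irf9, which turn on antiviral genes by binding a promoter sequence named the interferon-stimulated response element (ISRE).

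The 6 coculture libraries held 48315037 to 68933002 counts, and the 9 libraries of the line had a common biological coefficient of variation of 0.0728. Every pair of replicates in the 2 coculture groups differed by more than sampling noise, with a chi-square per degree of freedom of at least 11.95. That value pools many genes, and it does not show that the libraries came from separate cultures. Levels are given as CPM, the counts of a gene scaled to library size, computed with edgeR's trimmed mean of M-values (TMM), and they compare samples, not genes of different length. Of 18 epithelial markers, 6 were tested, and the defining markers Cdh1 and Epcam had at most 3 and 6 counts in any library, while Krt8 was at 372 CPM in WT coculture. The pan-leukocyte marker Ptprc had 0 counts in all 9 libraries, and of 15 immune and 14 endothelial markers 5 and 7 were tested. Summed over the immune markers the level was 84.9 to 90.9 CPM alone, 74.6 to 75.6 CPM in WT and 99.5 to 103 CPM in sgPrrx1 coculture. Summed over 30 fibroblast markers the level was 2401 to 2666 CPM alone and 3358 to 3592 CPM in WT coculture. In sgPrrx1 coculture it was 2180.1 to 2335 CPM. Of the 27 markers tested, 18 were expressed alone (at least 1 CPM), so the sum also holds transcripts of the cancer cells. S100a4 was at 1092 CPM alone, 438 CPM in WT and 858 CPM in sgPrrx1 coculture, and Pcolce at 519, 476 and 354 CPM. Tcf21 had 0 counts throughout, Fap at most 2 and Lum at most 12, while Col1a1 and Col3a1 were at 161 and 239 CPM in WT coculture.

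Between sgPrrx1 and WT coculture, 8130 of 13540 genes tested passed the threshold of 0.05 on the adjusted p in edgeR's quasi-likelihood test, which is 60.0% of them. Of these, 3649 were higher in sgPrrx1 coculture (26.9%) and 4481 were lower (33.1%). Most changes were small. Only 838 of the 8130 reached a log2 fold change of 1 in either direction, 214 higher and 624 lower. The genes were then split by their mean level in cells alone. Of 11188 genes expressed alone (at least 1 CPM), 3471 were higher and 3863 lower, with a median log2 fold change of -0.02 and 91 genes past 1 in each direction. Of 604 genes at or near 0 alone (under 0.1 CPM), 24 were higher and 364 lower, with a median of -1.76. Such genes could pass the expression filter only through the coculture libraries, in 1 group or both, so these counts are a description. Of the 1748 genes in between, 154 were higher and 254 lower, with a median of 0.02.

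**Figure D1:**
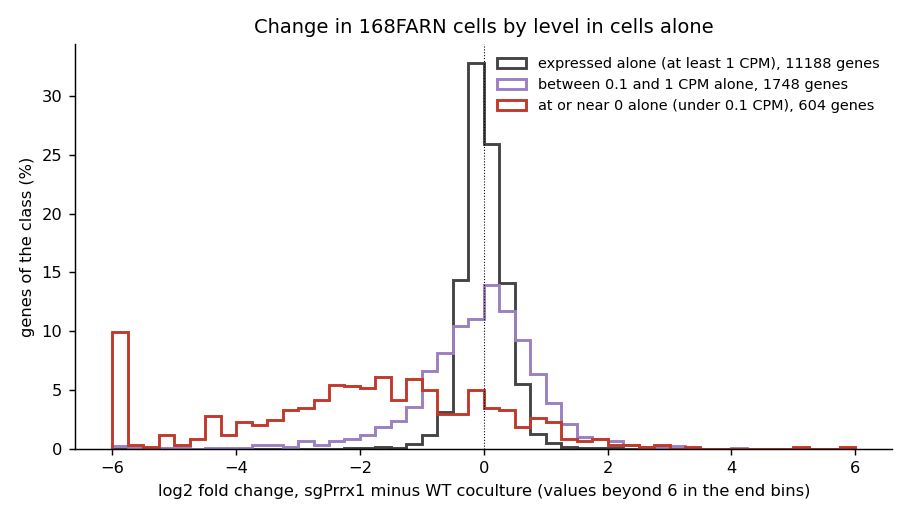
Share of genes (%, y axis) by log2 fold change from WT to sgPrrx1 coculture of 168FARN (x axis, bins of 0.25, with values beyond 6 in the end bins), for genes expressed alone (black), between 0.1 and 1 CPM alone (purple) and at or near 0 alone (red). The genes expressed alone lie in a narrow peak around 0, and those at or near 0 alone spread to the left with a median of -1.76. Genes at or near 0 alone could enter the test only through the coculture libraries.

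The changes also moved with transcript length. Among genes expressed alone with a protein-coding transcript length, the quartile with the shortest transcripts (39 to 1954 bases) held 1352 genes called higher and 354 called lower of 2500. The quartile with the longest (4446 to 28204 bases) held 357 higher and 1377 lower of 2498. The median log2 fold change was 0.19 in the shortest and -0.14 in the longest quartile. With an offset for length fitted in each library, an alternative chosen after seeing the data, these medians were 0.00722 and -0.00308. That fit took only the 11845 tested genes with a length, of which 6860 passed. The cause of the trend was not tested.

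Genes to describe were taken in order of fold change among those called, if the 6 coculture libraries averaged 100 counts or more and there was no overlap between groups. By that rule 4 of the 6 leading falls among genes expressed alone were matrix genes. Col1a1 (chromosome 11, 94936224 to 94953042, GRCm38), the alpha 1 chain of type I collagen, was at 3.82, 3.35 and 4.06 CPM alone, at 173, 159 and 150.0 CPM in WT and at 10.4, 10.1 and 10.6 CPM in sgPrrx1 coculture. The 2 coculture groups lay far apart, and the sgPrrx1 libraries kept a level above those alone (log2 fold change -3.95, SE 0.0646, adjusted p = 2.96e-11). Bgn (chromosome X, 73483601 to 73495936), a small proteoglycan that binds collagen, was at 2.71, 2.74 and 2.37 CPM alone, at 178, 171 and 192 CPM in WT and at 14.2, 15.2 and 13.5 CPM in sgPrrx1 coculture (log2 fold change -3.66, SE 0.0603, adjusted p = 2.96e-11). Col3a1 (chromosome 1, 45311538 to 45349706), of type III collagen, was at 252, 247 and 218 CPM in WT and at 32.7, 34.1 and 31.4 CPM in sgPrrx1 coculture, with 8.20 ± 1.12 CPM alone (mean ± SD, n = 3). Its log2 fold change was -2.87, with an SE of 0.0822 and an adjusted p of 1.02e-09.

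Col12a1 (chromosome 9, 79598987 to 79721141), a collagen that sits on the surface of fibrils, went below the level of cells alone. Its libraries were at 2.79, 2.69 and 3.25 CPM alone, at 5.46, 6.54 and 6.82 CPM in WT and at 0.709, 0.769 and 0.711 CPM in sgPrrx1 coculture, so that no library of sgPrrx1 coculture reached the lowest of the alone group (log2 fold change -3.10, SE 0.145, adjusted p = 3.03e-08). Lrrc32 (chromosome 7, 98489305 to 98501831), which encodes GARP, a cell-surface carrier of latent TGF-beta, fell from 12.2 ± 0.719 to 1.73 ± 0.0694 CPM (log2 fold change -2.81, SE 0.0989, adjusted p = 3.97e-09). Arl6ip1 (chromosome 7, 118118890 to 118129625), an endoplasmic reticulum membrane protein, fell from 7.24 ± 0.339 to 1.11 ± 0.110 CPM, back to the level of cells alone (1.17 ± 0.251 CPM), with a log2 fold change of -2.69.

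By the same rule the leading rises among genes expressed alone were Ifit1bl1, Iigp1, Clec4d, Acod1, S100a8 and Steap4. Ifit1bl1 (chromosome 19, 34592888 to 34662981), of the IFIT family of antiviral RNA-binding proteins, was at 1.07, 1.71 and 1.13 CPM alone, at 1.29, 1.65 and 1.48 CPM in WT and at 8.28, 7.92 and 8.50 CPM in sgPrrx1 coculture (log2 fold change 2.48, SE 0.161, adjusted p = 2.81e-07). Its annotated span overlaps other IFIT genes, so its counts are uncertain. Iigp1, an interferon-inducible GTPase, was at 2.90, 3.50 and 3.03 CPM alone, at 6.14, 6.25 and 6.47 CPM in WT and at 28.1, 25.3 and 25.4 CPM in sgPrrx1 coculture (log2 fold change 2.06, SE 0.0708, adjusted p = 3.41e-09). Every sgPrrx1 library of both genes lay above every other library of the line. S100a8 (chromosome 3, 90669071 to 90670034), a subunit of the inflammatory protein calprotectin, rose from 3.37 ± 0.905 to 10.9 ± 0.452 CPM (log2 fold change 1.697, SE 0.162, adjusted p = 5.23e-06).

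The other 3 had a lower mean in WT coculture than alone. Clec4d (chromosome 6, 123262107 to 123275268), a C-type lectin receptor of innate immunity, was at 4.95, 5.47 and 4.57 CPM alone, at 1.93, 2.57 and 1.42 CPM in WT and at 7.88, 6.65 and 7.85 CPM in sgPrrx1 coculture (log2 fold change 1.90, SE 0.172, adjusted p = 3.50e-06). Acod1 (chromosome 14, 103047012 to 103056573), the enzyme that makes itaconate in inflammatory cells, was at 1.29, 1.65 and 1.915 CPM alone. Its WT libraries overlapped with these, at 1.38, 0.876 and 1.77 CPM. In sgPrrx1 coculture it was at 4.34, 4.91 and 5.03 CPM (log2 fold change 1.85, SE 0.220, adjusted p = 2.79e-05). Steap4 (chromosome 5, 7960472 to 7982213), a metalloreductase, was at 7.48 ± 0.453 CPM alone and rose from 1.66 ± 0.162 CPM in WT to 5.04 ± 0.333 CPM in sgPrrx1 coculture (log2 fold change 1.61, SE 0.109, adjusted p = 3.76e-07). Of the 5 tested immune markers, Cd14, a receptor of monocytes, rose from 44.8 ± 1.46 to 65.2 ± 2.33 CPM and Lyz2, the lysozyme of myeloid cells, from 14.02 ± 0.556 to 20.0 ± 0.634 CPM, with log2 fold changes of 0.54 and 0.51. Alone they were at 37.9 and 25.5 CPM, and the other 3 markers did not pass, with log2 fold changes from -0.26 to 0.15. The part of these markers in the rises of Clec4d, Acod1 and S100a8 was not tested.

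**Figure D2:**
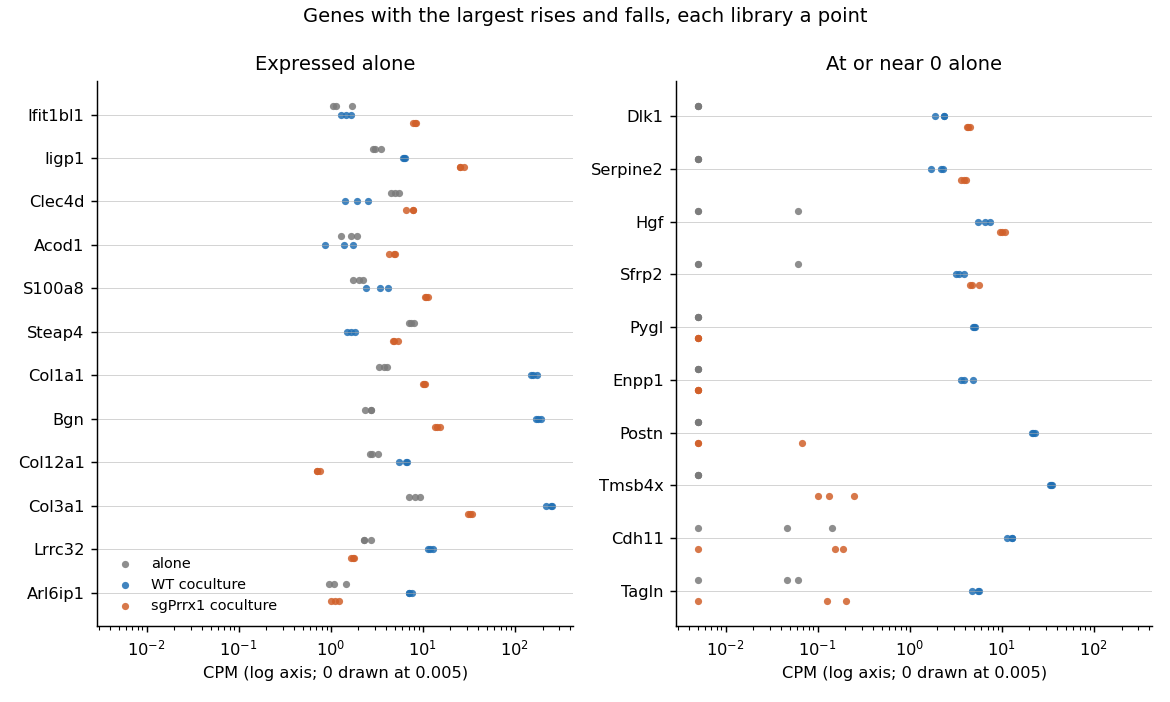
CPM of each library (x axis, log scale, with 0 drawn at 0.005) for the genes with the largest rises (top) and falls (bottom) among genes expressed alone (left) and at or near 0 alone (right). Grey points are cells alone, blue points WT coculture and orange points sgPrrx1 coculture. Pygl and Enpp1 are at 0 in all 3 sgPrrx1 libraries, and Hgf, Dlk1, Serpine2 and Sfrp2 are at higher levels in sgPrrx1 than in WT coculture.

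The 603 genes at or near 0 alone other than the pseudogene Atp6v0c-ps2 summed to 16.4, 19.2 and 16.6 CPM alone, 934, 936 and 937 CPM in WT and 228, 229 and 226 CPM in sgPrrx1 coculture. Their summed level was thus 4.11 times higher in WT than in sgPrrx1 coculture, with an SD between replicates of 1.12 CPM in WT and 1.33 CPM in sgPrrx1 coculture. Genes enter this sum only through the coculture libraries, and the small SDs do not show whether the libraries came from separate cultures. In bulk samples, fewer cells of a type and less RNA per cell of that type cannot be told apart. The long noncoding RNA Xist, made from the inactive X chromosome of female cells, was at 0.596, 0.312 and 0.556 CPM alone, at 23.3, 21.6 and 23.5 CPM in WT and at 2.82, 3.31 and 3.44 CPM in sgPrrx1 coculture, a log2 fold change of -2.83. Of the 30 fibroblast markers 27 were tested, 22 of them lower and 3 higher, with a median log2 fold change of -1.29 against -0.03 over all genes tested. Of 9 tested genes that the study followed by qPCR, 7 were lower (77.8%) and 1 higher, and 3 of 4 tested pericyte markers were lower (75%), beside 33.1% lower of all genes. Only 3 of these 9 genes and 1 of these 4 markers were expressed alone. Among genes at or near 0 alone 60.3% were lower. The part of these markers in the falls of matrix, contractile and secreted genes was not tested.

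The changes of single genes at or near 0 alone are given as a description. Leaving out Atp6v0c-ps2, of the 124 with a mean of at least 1 CPM over the 6 coculture libraries, 26 had a log2 fold change below -4, 61 from -4 to -2, 21 from -2 to -1 and 8 from -1 to 0, while 8 were at 0 or above. A gene could reach that mean through WT or sgPrrx1 coculture alone, so the selection lets in genes that are high in only 1 group. Pygl (chromosome 12, 70190815 to 70227683), glycogen phosphorylase of the liver type, was at 4.99, 5.15 and 4.81 CPM in WT coculture and had 0 counts in all sgPrrx1 and alone libraries, at least 91.4-fold lower against a floor of 3 counts per library. Enpp1 (chromosome 10, 24637914 to 24712159), an ectonucleotidase, was at 3.92, 3.61 and 4.81 CPM in WT coculture and was also at 0 counts with sgPrrx1 CAFs, where its level was at least 75.5-fold lower. Postn, which encodes the matricellular protein periostin, kept at most 4 counts in a sgPrrx1 library, from 22.1 ± 0.891 CPM in WT coculture. Cdh11 (chromosome 8, 102632095 to 102785493), the cadherin of mesenchymal cells, was at 12.8, 11.4 and 13.0 CPM in WT and at 0.188, 0 and 0.152 CPM in sgPrrx1 coculture.

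Tagln (chromosome 9, 45929628 to 45936058), an actin-binding protein of smooth muscle and myofibroblasts, was at 5.51, 4.77 and 5.62 CPM in WT and at 0.125, 0.201 and 0 CPM in sgPrrx1 coculture. Tmsb4x, an actin-sequestering peptide that nearly every cell makes, was listed at 0 in all libraries alone, at 33.1, 34.2 and 34.9 CPM in WT and at 0.250, 0.134 and 0.102 CPM in sgPrrx1 coculture. Because a gene in such general use is listed at 0, a value of 0 in cells alone is given here as listed and not as absence. Cdkn2a and Cdkn2b, cell cycle inhibitors that tumour cells often lose, were also listed at 0 alone. Cdkn2a was at 9.52, 8.63 and 9.46 CPM in WT and at 3.15, 2.79 and 2.88 CPM in sgPrrx1 coculture (log2 fold change -1.65, SE 0.103, adjusted p = 1.32e-06), and Cdkn2b had a log2 fold change of -2.26 (SE 0.198).

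A few transcripts that were at or near 0 alone rose in sgPrrx1 coculture. Hgf (chromosome 5, 16553495 to 16619439), the fibroblast-made ligand of the receptor Met, was at 5.56, 7.45 and 6.55 CPM in WT and at 9.53, 9.96 and 10.7 CPM in sgPrrx1 coculture, with no overlap (log2 fold change 0.63, SE 0.146, adjusted p = 0.00315). Dlk1 (chromosome 12, 109452485 to 109463336), a membrane protein of preadipocytes and other immature cells, was at 2.34, 2.38 and 1.87 CPM in WT and at 4.296, 4.46 and 4.16 CPM in sgPrrx1 coculture (log2 fold change 0.96, SE 0.144, adjusted p = 0.000367). Serpine2 (chromosome 1, 79794317 to 79858665), an inhibitor of thrombin and plasminogen activators, was at 1.69, 2.20 and 2.27 CPM in WT and at 3.65, 4.13 and 3.88 CPM in sgPrrx1 coculture (log2 fold change 0.92, SE 0.162, adjusted p = 0.000962). The mean of each was 1.54, 1.96 and 1.89 times that in WT coculture, while the summed level of the class fell. Sfrp2 (chromosome 3, 83765750 to 83774314), a secreted Wnt modulator, had the smallest of these rises, from 3.21, 3.91 and 3.41 to 5.65, 4.73 and 4.52 CPM (log2 fold change 0.50, SE 0.181, adjusted p = 0.0346), and its call was lost without any 1 of 4 libraries, with log2 fold changes of 0.40 to 0.53. The call was also lost with scaling by library totals only (0.45) and with a replicate block (0.50). Cacna2d1 (2.13, 2.09 and 2.11 CPM in WT and at 2.23, 1.82 and 1.91 CPM in sgPrrx1 coculture), Rnf150 (log2 fold change -0.04) and Mark1 (-0.03), named after their values were seen, did not pass the test.

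Interferon-stimulated genes had the highest share of members called higher among the lists with at least 9 tested members, 92.5%. All 40 on the list were tested, and 37 were higher and 1 lower in sgPrrx1 coculture, where 26.9% and 33.1% of all genes were, with a median log2 fold change of 0.69. With the length offset 35 of 38 were higher and 1 lower, with a median of 0.70. The promoters of 4 of them are shown because the ISRE is where interferon's factors are known to bind, 3 with matches and 1 without. Each is given as the 250 bases before an annotated start (RefSeq, GRCm38.p6), with matches to the shortened ISRE core (GAAA, NN for any 2 bases, then GAA) on either strand in capitals, where neighbouring matches may overlap.
Isg15: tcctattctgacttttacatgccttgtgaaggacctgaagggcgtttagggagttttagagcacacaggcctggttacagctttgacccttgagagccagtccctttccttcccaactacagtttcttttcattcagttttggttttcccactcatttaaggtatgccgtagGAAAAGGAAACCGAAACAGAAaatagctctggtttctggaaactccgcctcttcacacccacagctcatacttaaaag
Ifit1: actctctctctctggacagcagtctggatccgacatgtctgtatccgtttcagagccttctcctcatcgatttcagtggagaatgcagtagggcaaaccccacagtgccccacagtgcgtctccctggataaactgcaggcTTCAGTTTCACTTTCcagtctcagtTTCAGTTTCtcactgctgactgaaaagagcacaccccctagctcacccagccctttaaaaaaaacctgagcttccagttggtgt
Rsad2: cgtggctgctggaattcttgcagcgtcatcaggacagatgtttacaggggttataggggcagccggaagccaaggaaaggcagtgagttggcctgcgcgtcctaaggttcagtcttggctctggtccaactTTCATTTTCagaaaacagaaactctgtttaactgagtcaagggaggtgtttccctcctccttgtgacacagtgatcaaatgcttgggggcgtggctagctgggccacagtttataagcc
Irf7: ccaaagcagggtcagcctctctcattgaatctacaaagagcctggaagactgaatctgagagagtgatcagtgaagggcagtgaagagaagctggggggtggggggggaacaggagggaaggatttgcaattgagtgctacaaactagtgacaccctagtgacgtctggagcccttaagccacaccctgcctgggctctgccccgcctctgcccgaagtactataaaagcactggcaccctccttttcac
These windows lie at chr4:156200819-156201068, minus strand, at chr19:34640639-34640888, plus strand, at chr12:26456453-26456702, minus strand and at chr7:141266425-141266674, minus strand. Isg15 and Ifit1 hold 3 matches each, which begin 78, 72 and 66 bases before the start in Isg15 and 109, 103 and 84 in Ifit1. Rsad2 holds 1 match at 119 bases, and the Irf7 window holds none of these letters, which says nothing about the factors at that gene. In windows that also take in 50 bases after the start, 20 of the 28 genes called higher that have a promoter in the table held the motif, against 8.56% of all 32851 promoters and 8.63% of the genes tested. Of the 5 other motifs searched in the same windows, the gamma-activated site bound by Stat dimers was in 7 of the 28 (25.0%, against 8.44% of the genes tested), the TATA box was also in 7 (25.0%, against 8.75%), and the hypoxia response element ACGTG was in 2 of the 28 (7.14%, against 28.7%).

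The factors of the pathway are given first. Irf7 (chromosome 7, 141263183 to 141266499), the factor that amplifies the type I interferon response, was at 52.3, 49.97 and 52.0 CPM alone, at 68.3, 67.9 and 69.2 CPM in WT and at 173, 177 and 171 CPM in sgPrrx1 coculture (log2 fold change 1.34, SE 0.0280, adjusted p = 1.29e-10). Irf9 rose from 48.0 ± 0.371 to 53.3 ± 0.994 CPM (log2 fold change 0.15). Stat2 did not pass the test, at 113 ± 5.19 CPM in WT and 119 ± 3.81 CPM in sgPrrx1 coculture (adjusted p = 0.119). Irf1, a factor induced by interferon gamma, was the member called lower, from 68.8 ± 3.52 to 63.4 ± 0.389 CPM (log2 fold change -0.12, adjusted p = 0.0489), and it lost the call when any 1 of 5 of the 6 coculture libraries was left out, with values of -0.12 to -0.08.

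Isg15 (chromosome 4, 156199424 to 156200818), a ubiquitin-like protein, was at 66.8, 76.0 and 69.1 CPM in WT and at 159, 161 and 163 CPM in sgPrrx1 coculture (log2 fold change 1.19, SE 0.0453, adjusted p = 7.09e-09). Rsad2 (chromosome 12, 26442743 to 26456452), which encodes viperin, was at 36.8, 41.6 and 36.7 CPM in WT and at 116, 115 and 112 CPM in sgPrrx1 coculture (log2 fold change 1.57, SE 0.0501, adjusted p = 1.94e-09). Ifit1 (chromosome 19, 34640889 to 34650009) was at 48.1, 49.3 and 51.2 CPM in WT and at 109, 108 and 111 CPM in sgPrrx1 coculture (log2 fold change 1.14, SE 0.0345, adjusted p = 1.34e-09). In all 3 the groups did not overlap and each sgPrrx1 library was above the alone group, whose means were 77.3, 22.4 and 30.5 CPM. Oasl1, a relative of the RNA-sensing 2-5A synthetases, rose from 18.05 ± 0.361 to 54.1 ± 1.85 CPM, the GTPase Mx1 from 7.36 ± 0.499 to 21.4 ± 0.596 CPM and the ISG15 protease Usp18 from 58.2 ± 1.73 to 128 ± 0.898 CPM. Their log2 fold changes were 1.58, 1.54 and 1.14. Ifit3 and Ifit3b are near-identical copies, and their separate rises of 0.96 and 1.21 are uncertain.

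**Figure D3:**
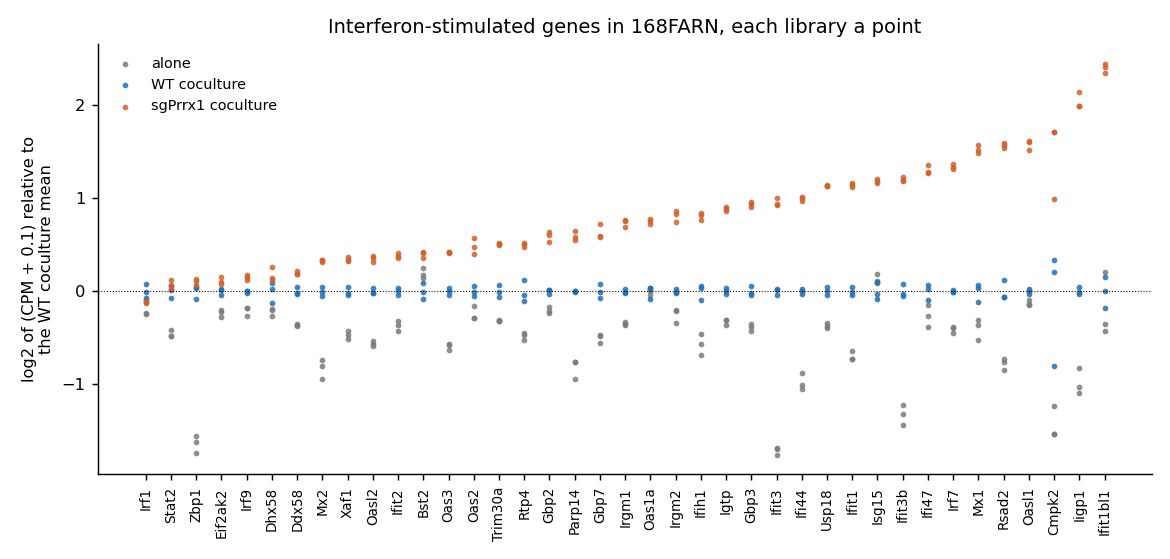
Each library's level of 39 of the 40 interferon-stimulated genes as log2 of (CPM + 0.1) relative to the mean of WT coculture (y axis), with genes in the order of their log2 fold change (x axis). Orange points are sgPrrx1 coculture, blue WT coculture and grey cells alone. The genes called higher run from Eif2ak2 with a log2 fold change of 0.11 to Ifit1bl1 with 2.48, and Irf1, Stat2 and Zbp1, on the left, are not among them.

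Of 15 tested genes of MHC class I presentation, 9 were higher (60%, against 26.9% of all genes) and 2 lower (13.3%, against 33.1%), with a median log2 fold change of 0.20 (7 and 3 of 14 with the length offset). The immunoproteasome subunits Psmb10, Psmb9 and Psmb8 rose by 0.75, 0.66 and 0.42 on the log2 scale. Cd274, which encodes the checkpoint ligand PD-L1, was at 8.24, 8.29 and 8.48 CPM in WT and at 14.5, 15.1 and 14.9 CPM in sgPrrx1 coculture (log2 fold change 0.83, SE 0.0702, adjusted p = 2.03e-06). The peptide transporter subunit Tap2 and the loading factor Tapbp fell by 0.18 and 0.24, and B2m (log2 fold change 0.06) and H2-K1 (0.27) did not pass the test.

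Of 22 tested matrix and matricellular genes, 20 were lower (90.9%, against 33.1% of all genes tested) and 0 higher in edgeR (19 and 0 with the length offset), with a median log2 fold change of -0.999. The remaining 2, Sparc and Nid2, did not pass at log2 fold changes of -0.50 and -1.03. Of the 22, 15 were expressed alone and 5 were at or near 0 alone, a class in which 60.3% of genes were lower. Fn1, which encodes fibronectin, was at 4769 CPM alone and fell from 5263 CPM in WT to 2688 CPM in sgPrrx1 coculture. Thbs2 (chromosome 17, 14665500 to 14694262), thrombospondin 2, was at 135, 135 and 132 CPM alone, at 120.0, 119.9 and 115 CPM in WT and at 27.5, 30.4 and 28.1 CPM in sgPrrx1 coculture (log2 fold change -2.04, SE 0.0392, adjusted p = 7.37e-11). The sgPrrx1 libraries lay below all others, the alone group included. Nid1, a linker of basement membranes, was at 0.288, 0.140 and 0.165 CPM alone, at 31.5, 29.5 and 29.2 CPM in WT and at 1.61, 1.605 and 2.18 CPM in sgPrrx1 coculture (log2 fold change -4.06, SE 0.114, adjusted p = 9.77e-10). Chains of basement membranes fell by unequal amounts. The laminin chain Lama4 was at 5.20, 5.75 and 6.30 CPM alone, at 1.99, 1.72 and 1.30 CPM in WT and at 0.125, 0.251 and 0.118 CPM in sgPrrx1 coculture (log2 fold change -3.32), while Col4a1 fell by 0.27, Lamc1 by 0.49 and Lamb1 by 0.61 on the log2 scale.

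Matrix proteases and their inhibitors followed, with 16 of 20 lower (80.0%, against 33.1% of all genes), 1 higher and a median log2 fold change of -0.90 (16 and 2 with the length offset). Mmp3, stromelysin 1, was at 24.1, 24.6 and 25.0 CPM alone, at 114, 122 and 107 CPM in WT and at 28.4, 29.2 and 27.9 CPM in sgPrrx1 coculture (log2 fold change -2.004, SE 0.0449, adjusted p = 1.76e-10). Mmp14, the membrane-bound activator of Mmp2, fell from 152 ± 2.08 to 74.9 ± 2.16 CPM. Adamts5, an aggrecanase, went from 0.995, 1.07 and 1.18 CPM in WT to 0 counts in every sgPrrx1 library. Mmp9, the gelatinase, was the member called higher, from 139.9 ± 1.26 to 174 ± 1.32 CPM (log2 fold change 0.32), and was at 327 CPM alone. Mmp10, Timp2 and Plaur did not pass, at log2 fold changes of 0.07, 0.01 and 0.06.

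Of 17 tested myofibroblast and contractile genes, 13 were lower (76.5%, against 33.1% of all genes) and 0 higher in edgeR, with a median of -0.54. Of the 17, 11 were expressed alone and 4 were at or near 0 alone, a class in which 60.3% of genes were lower. Acta2, smooth muscle actin, was at 0.3904, 0.265 and 0.329 CPM alone, at 8.84, 8.72 and 9.98 CPM in WT and at 0.188, 0.318 and 0.338 CPM in sgPrrx1 coculture (log2 fold change -4.99, SE 0.179, adjusted p = 4.42e-09). Smaller falls were those of Myh9, nonmuscle myosin heavy chain, from 954 ± 19.2 to 645 ± 18.5 CPM and Actn1, an actin crosslinker, from 635 ± 4.90 to 531 ± 14.4 CPM. Tpm1, a tropomyosin, did not pass at 0.03.

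Of 11 EMT transcription factors, 8 were lower and 2 higher (7 and 1 with the length offset). These shares of 72.7% and 18.2% stand beside 33.1% and 26.9% of all genes. Snai2 was at 1.11, 1.28 and 1.05 CPM alone, at 4.12, 4.54 and 4.75 CPM in WT and at 1.75, 1.54 and 1.34 CPM in sgPrrx1 coculture (log2 fold change -1.54, SE 0.141, adjusted p = 3.86e-06). Snai1 fell from 59.5 ± 5.90 to 39.8 ± 1.03 CPM and Zeb1 from 108 ± 5.993 to 76.8 ± 3.61 CPM, with Zeb1 at 74.4 ± 1.66 CPM alone. Twist2 and Twist1 rose by 0.51 and 0.11. Prrx1 itself, which the cancer cells hold, had a log2 fold change of -0.20, which was -0.05 and no longer called with the length offset. Since the deletion was in the fibroblasts, its level does not check the labels.

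Genes of the TGF-beta pathway had 13 of 21 lower and 4 higher (12 and 5 with the length offset), with a median log2 fold change of -0.19. These are shares of 61.9% and 19.0%, beside 33.1% and 26.9% of all genes tested. Inhba, which encodes activin A, was at 12.7, 13.3 and 13.6 CPM in WT and at 1.04, 0.903 and 1.15 CPM in sgPrrx1 coculture, and 0.0534 CPM alone (log2 fold change -3.67, SE 0.159, adjusted p = 1.77e-08). The latent TGF-beta binding proteins Ltbp1, Ltbp2 and Ltbp3 fell by 0.63, 0.75 and 0.50. The inhibitory Smad7, a direct target, fell from 73.6 ± 0.668 to 63.0 ± 2.50 CPM, and the receptor Tgfbr1 did not pass (0.01). The Id genes, targets of the BMP branch, went the other way. Id2 was at 40.6, 41.8 and 43.0 CPM alone, at 13.0, 12.8 and 12.7 CPM in WT and at 26.8, 26.8 and 24.9 CPM in sgPrrx1 coculture (log2 fold change 1.03, SE 0.0415, adjusted p = 1.10e-08), and Id1 and Id3 rose by 0.81 and 0.51.

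Of 14 YAP and TEAD targets, 11 were lower (78.6%, against 33.1% of all genes) and 1 higher (9 and 1 of 13 with the length offset), with a median log2 fold change of -0.51. The promoters of 2 of them are shown because they hold the TEAD core GGAATG, printed in capitals on either strand.
Ankrd1: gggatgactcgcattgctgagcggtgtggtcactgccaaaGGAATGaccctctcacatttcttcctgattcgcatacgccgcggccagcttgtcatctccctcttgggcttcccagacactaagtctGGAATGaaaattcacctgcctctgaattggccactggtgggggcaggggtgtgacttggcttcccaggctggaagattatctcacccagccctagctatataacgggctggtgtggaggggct
Amotl2: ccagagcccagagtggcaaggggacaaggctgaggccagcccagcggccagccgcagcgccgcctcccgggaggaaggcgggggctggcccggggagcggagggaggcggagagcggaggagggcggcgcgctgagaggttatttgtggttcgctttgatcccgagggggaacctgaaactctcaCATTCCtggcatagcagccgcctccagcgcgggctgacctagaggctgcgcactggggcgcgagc
The windows lie at chr19:36119845-36120094, minus strand and at chr9:102717554-102717803, plus strand, and the matches begin 210 and 123 bases before the start of Ankrd1 and 65 bases before that of Amotl2. In windows that also take in 50 bases after the start, the motif was in 6 of the 8 members called lower that have a promoter in the table. It was in 14.7% of all promoters and in 14.6% of the genes tested. The 250-base windows of F3, Nt5e and Lats2, also called lower, held none. Among the same 8, the ISRE core was in 2 (25.0%, against 8.63% of the genes tested) and the sterol regulatory element in 0. Ankrd1, a muscle ankyrin repeat protein, was at 10.9, 10.3 and 10.3 CPM alone, at 67.7, 74.8 and 67.6 CPM in WT and at 33.4, 34.3 and 34.4 CPM in sgPrrx1 coculture (log2 fold change -1.04, SE 0.0427, adjusted p = 1.23e-08). Cyr61, a secreted matricellular protein, was at 245, 238 and 241 CPM alone, at 632, 642 and 649.6 CPM in WT and at 316, 324 and 316 CPM in sgPrrx1 coculture (log2 fold change -1.01, SE 0.0226, adjusted p = 1.76e-10). Amotl2, an inhibitor in the same pathway, fell from 71.3 ± 1.11 to 41.3 ± 0.451 CPM. In all 3 the sgPrrx1 libraries lay between the alone and the WT libraries. Tead4 was the member called higher, by 0.20.

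Immediate early genes, which cells switch on within minutes of a growth signal, had 12 of 20 members lower and 2 higher (11 and 3 with the length offset), with a median of -0.21. The shares were 60% and 10%, beside 33.1% and 26.9% of all genes. Egr1 was at 10.7, 11.5 and 10.5 CPM alone, at 67.7, 65.4 and 73.3 CPM in WT and at 21.2, 21.4 and 20.9 CPM in sgPrrx1 coculture (log2 fold change -1.699, SE 0.0473, adjusted p = 8.91e-10). Myc was at 141, 109 and 134 CPM alone, at 237, 284 and 321 CPM in WT and at 209.8, 170.3 and 169 CPM in sgPrrx1 coculture (log2 fold change -0.62, SE 0.124, adjusted p = 0.00127). Fos fell from 98.4 ± 1.32 to 55.2 ± 0.743 CPM, below the 83.2 CPM of cells alone. Ier3 and Klf6 rose by 0.32 and 0.09.

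Of 35 cytokines and chemokines, 14 were higher and 14 lower (14 and 18 with the length offset). Each is a share of 40%, beside 26.9% higher and 33.1% lower of all genes. Chemokines that draw monocytes and neutrophils were among those that rose. Ccl2 was at 1437, 1354 and 1396 CPM alone, at 654, 679 and 724 CPM in WT and at 1567, 1598 and 1584 CPM in sgPrrx1 coculture (log2 fold change 1.21, SE 0.0335, adjusted p = 8.91e-10). Ccl7 was at 624, 617 and 654 CPM alone, at 208, 214 and 203 CPM in WT and at 539, 525 and 549.8 CPM in sgPrrx1 coculture (log2 fold change 1.37, SE 0.0304, adjusted p = 1.76e-10). The levels in sgPrrx1 coculture of both were near those alone. Cxcl1 rose from 629 ± 29.2 to 1152 ± 21.3 CPM and Csf3, the granulocyte growth factor, from 59.3 ± 2.89 to 118 ± 2.91 CPM. The interferon-induced chemokines Cxcl10 and Ccl5 rose by 0.94 and 1.01. Ccl20 had the largest rise of those called, at 2.13, at low levels (0.327, 0.234 and 0.467 CPM in WT and at 1.25, 1.86 and 1.29 CPM in sgPrrx1 coculture). The inflammatory cytokine Il1b had a higher log2 fold change of 2.29 that did not pass.

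Growth factors and ligands that fibroblasts are known for were among those that fell. Cxcl12, the ligand of Cxcr4, was at 11.3, 11.3 and 10.6 CPM alone, at 36.5, 34.9 and 33.6 CPM in WT and at 11.0, 10.4 and 11.6 CPM in sgPrrx1 coculture (log2 fold change -1.67, SE 0.0533, adjusted p = 1.95e-09). Fgf7, a fibroblast-made ligand for epithelial cells, fell from 16.1 ± 0.520 to 3.99 ± 0.439 CPM and the alarmin Il33 from 17.9 ± 1.23 to 3.81 ± 0.152 CPM. Csf1, the macrophage growth factor, was at 268, 253 and 255 CPM alone, at 358, 354 and 371 CPM in WT and at 188, 187 and 190.4 CPM in sgPrrx1 coculture (log2 fold change -0.94, SE 0.0302, adjusted p = 2.20e-09), so its sgPrrx1 libraries were below the alone group. Cxcl16 had the largest fall at -2.31. Of 20 tested Wnt and IGF signalling genes, 13 were lower (65%, against 33.1% of all genes) and 3 higher (12 and 4 with the length offset). Of the 20, 10 were at or near 0 alone, a class in which 60.3% of genes were lower. Igfbp7, an IGF binding protein, fell from 18.5 ± 0.941 to 0.901 ± 0.0377 CPM. Wnt5b and Igfbp6 were called higher, by 1.11 and 0.62, and Igf2 did not pass at 580.4, 549.7 and 1009 CPM in WT and at 925, 906 and 1312 CPM in sgPrrx1 coculture (adjusted p = 0.0790).

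Glycolysis enzymes were lower in 14 of 21 genes (66.7%, against 33.1% of all genes) and higher in 1, with a median log2 fold change of -0.24 (15 and 1 of 20 with the length offset). The lactate exporter Slc16a3 was at 1.13, 1.25 and 1.46 CPM alone, at 15.5, 15.97 and 15.4 CPM in WT and at 4.80, 4.21 and 4.77 CPM in sgPrrx1 coculture (log2 fold change -1.77, SE 0.0835, adjusted p = 3.29e-08). Gpi1, which converts glucose 6-phosphate, fell from 887 ± 21.0 to 696 ± 7.52 CPM, and Tpi1 from 2028 ± 53.9 to 1627 ± 15.9 CPM. Ldha was the member called higher (0.08), and its value was -0.00296 with the length offset. It lost the call when any 1 of the 3 sgPrrx1 libraries was left out (0.08 to 0.09) and with scaling by library totals only (0.03). Of 16 hypoxia response genes 9 were lower (56.2%) and 3 higher (18.8%), with the same 33.1% and 26.9% over all genes (10 and 2 with the length offset). Vegfa, the angiogenic factor, was at 84.8, 82.1 and 80.9 CPM alone, at 154, 158 and 161 CPM in WT and at 85.7, 85.6 and 85.2 CPM in sgPrrx1 coculture (log2 fold change -0.88, SE 0.0292, adjusted p = 2.61e-09). Car9, a carbonic anhydrase, had a log2 fold change of -0.97, and Bnip3 and Higd1a rose by 0.19 and 0.15.

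Of 27 respiratory chain subunits, 19 were higher (70.4%, against 26.9% of all genes) and 3 lower (11.1%, against 33.1%), with a median log2 fold change of 0.30. Their median transcript length was 1287 bases, against 3026 over the genes expressed alone, and with the length offset 13 were higher and 5 lower with a median of 0.11. Cox7a2 rose most, from 97.9 ± 7.32 to 159.7 ± 1.76 CPM (log2 fold change 0.71), and Sdha fell by 0.38. Ribosomal protein genes, a list added after seeing the data, had 70 of 79 higher (88.6%) and 1 lower, and 44 and 10 of 77 with the length offset. Of 30 genes that every cell uses, 14 were higher (46.7%) and 11 lower (36.7%). Of 16 NRF2 targets, which answer oxidative stress, 10 were higher (62.5%) and 4 lower (25%), beside 26.9% and 33.1% of all genes (8 and 6 with the length offset). Slc7a11, the cystine importer, was at 45.9, 45.9 and 47.1 CPM alone, at 19.9, 19.5 and 20.6 CPM in WT and at 44.3, 47.3 and 43.5 CPM in sgPrrx1 coculture (log2 fold change 1.17, SE 0.0385, adjusted p = 2.41e-09). Ferritin heavy chain, Fth1, rose from 6389 ± 399 to 8885 ± 286 CPM, while Tkt, transketolase, fell by 0.71.

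Lipid and amino acid genes moved in both directions. Of 23 cholesterol synthesis genes 10 were higher and 5 lower, with Idi1 at 0.53 and Msmo1 at 0.47 among the rises, and the regulator Srebf2 at -0.34 among the falls. Of 12 fatty acid synthesis genes 9 were lower and 2 higher, with the desaturase Fads2 at -0.58 and Fasn, fatty acid synthase, at 0.18. Of 20 ATF4 and amino acid response genes 7 were higher and 9 lower (5 and 9 with the length offset), and of 16 ER chaperones 6 were higher and 6 lower. Hsp90b1, the ER chaperone Grp94, fell from 1872 ± 48.2 to 1314 ± 22.2 CPM, and the cochaperone Dnajb9 rose from 37.1 ± 5.04 to 52.9 ± 2.35 CPM. In these 4 lists the share of members called higher ran from 16.7% to 43.5%, beside 26.9% of all genes, and the share called lower from 21.7% to 75%, beside 33.1%.

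Of 24 genes of G1/S and DNA replication, 12 were higher (50%) and 7 lower (29.2%), with a median of 0.15. Of 24 genes of G2/M and mitosis, 4 were higher (16.7%) and 17 lower (70.8%), with a median of -0.19. Over all genes 26.9% were higher and 33.1% lower, and the difference between the lists was not tested. With the length offset the counts were 11 and 5, and 3 and 16. Tyms, thymidylate synthase, was at 73.3, 70.2 and 74.0 CPM alone, at 45.8, 47.4 and 45.0 CPM in WT and at 70.3, 74.9 and 67.7 CPM in sgPrrx1 coculture (log2 fold change 0.62, SE 0.0408, adjusted p = 2.96e-07). Pcna, the replication clamp, rose from 338 ± 9.73 to 506 ± 5.66 CPM. Mki67, which encodes the proliferation marker Ki-67, was at 277, 292 and 284 CPM alone, at 296, 278 and 308 CPM in WT and at 224, 224 and 219 CPM in sgPrrx1 coculture (log2 fold change -0.40, SE 0.0371, adjusted p = 3.85e-06). Top2a, topoisomerase II alpha, fell from 783 ± 8.10 to 606 ± 8.12 CPM, and Ccnb1 and Cdk1 rose by 0.37 and 0.33. Of 20 p53 target and apoptosis genes 9 were higher (45.0%) and 4 lower (20.0%), with a median of 0.06. The death receptor Fas was at 69.6, 75.2 and 72.5 CPM alone, at 31.7, 32.6 and 31.4 CPM in WT and at 49.7, 52.3 and 48.5 CPM in sgPrrx1 coculture (log2 fold change 0.65, SE 0.0381, adjusted p = 1.39e-07), while Cdkn1a did not pass (-0.04).

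**Figure D4:**
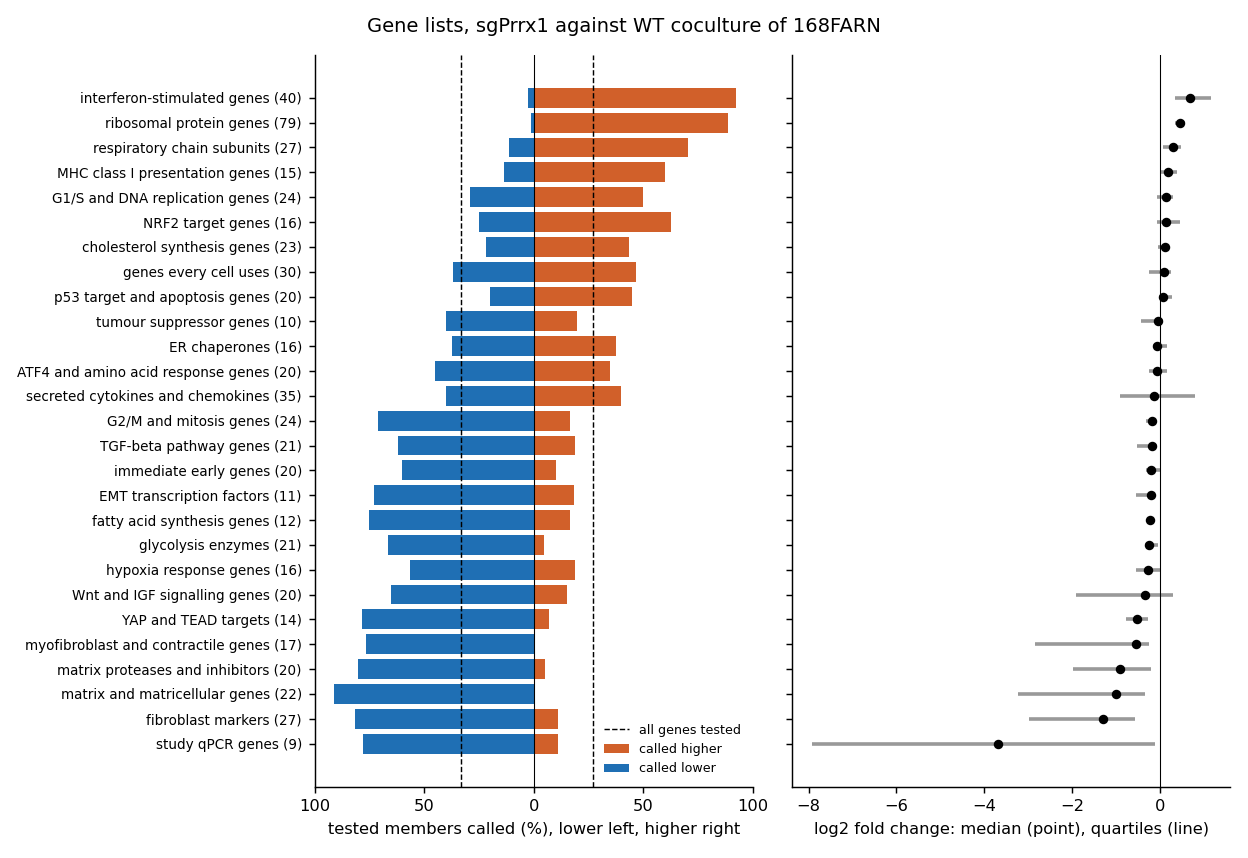
Left, share of tested members (%, x axis) called higher (orange, to the right) or lower (blue, to the left) in sgPrrx1 coculture for each gene list with at least 9 tested members (number in brackets), with dashed lines at the shares over all genes tested (26.9% higher and 33.1% lower). Right, median (point) and quartiles (line) of the log2 fold change; interferon-stimulated genes are at the top with a median of 0.69, and matrix genes, fibroblast markers and the study's qPCR genes at the bottom.

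The same fibroblast genotypes were set beside LLC1, a mouse lung cancer line, in 6 further libraries. There the fibroblasts were wound healing fibroblasts from mouse skin, so that cell line and fibroblast source cannot be told apart. When all 18 libraries were fitted together in edgeR, the change from WT to sgPrrx1 coculture differed between the lines for 2764 of 14344 genes (19.3%). Without 1 LLC1 library, sgPrrx1 replicate 3, 6515 of 14619 genes differed (44.6%). Of the 40 interferon-stimulated genes, 24 differed, all with the higher change in 168FARN, and 34 without that library. Their median change in LLC1 was -0.13, with 0 called higher and 5 lower, where 3.03% and 3.49% of all genes were called higher and lower in LLC1. Of the 22 matrix genes, 18 differed, 16 of them with the lower change in 168FARN (20 and 18 without that library), and the median change in LLC1 was 0.02. In LLC1, 3 of them were called higher (Col4a1, Col4a2 and Lama5) and 3 lower (Bgn, Thbs1 and Nid2). LLC1 cells alone already held some of these matrix genes, such as Nid1 at 402 CPM and Fbln1 at 78.2 CPM, while Postn was at 0.0084 CPM. In 168FARN alone Fbln1 was at 0 CPM. The part of these levels in the difference between the lines was not tested.

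Col1a1 fell in both lines. In LLC1 it was at 8.42, 11.2 and 7.51 CPM in WT and 0.551, 0.725 and 0.827 CPM in sgPrrx1 coculture. The difference between the lines was -0.25 (SE 0.265, adjusted p = 0.586). Bgn fell in both, by 2.41 on the log2 scale in LLC1, and the change in 168FARN minus that in LLC1 was -1.25 (SE 0.143, adjusted p = 2.97e-05). Col12a1 was at 6.43 CPM in WT and 4.66 CPM in sgPrrx1 coculture of LLC1, where its change did not pass (adjusted p = 0.274), and the difference between the lines was -2.65 (SE 0.360, adjusted p = 0.000128). Ifit1bl1, Iigp1 and Clec4d did not pass in LLC1, with changes of -0.27, -0.34 and -0.64, and the differences between the lines were 2.75 (SE 0.292), 2.39 (SE 0.170) and 2.54 (SE 0.487) with adjusted p values of 1.49e-05, 3.78e-07 and 0.00193. Thbs1, thrombospondin 1, differed in the other direction, from 37.6 to 3.67 CPM in LLC1 against a log2 fold change of -0.28 in 168FARN (difference 3.05, adjusted p = 0.000381).

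**Figure D5:**
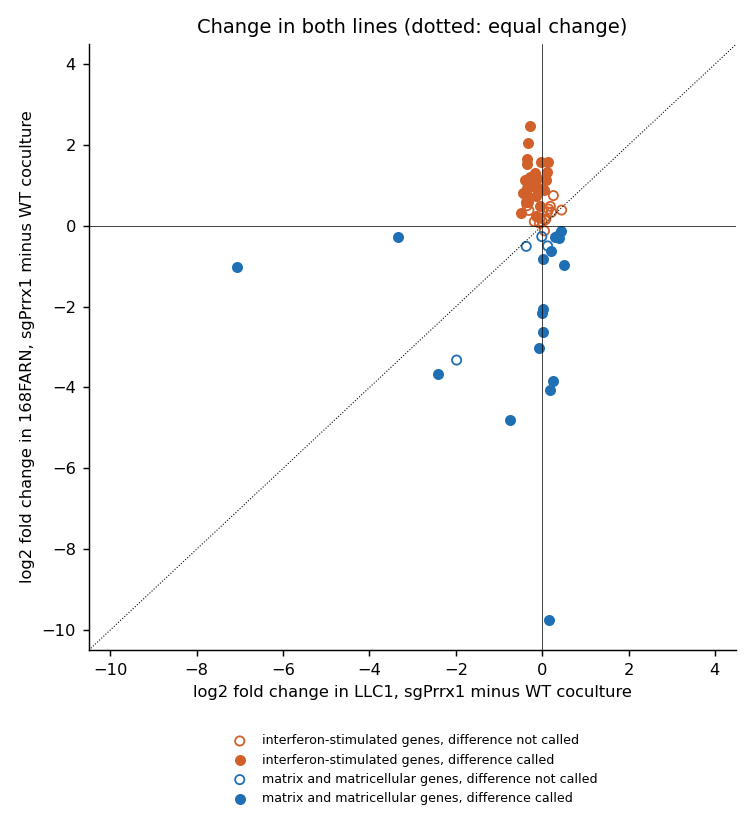
Log2 fold change from WT to sgPrrx1 coculture in 168FARN (y axis) against that in LLC1 (x axis) for interferon-stimulated genes (orange) and matrix and matricellular genes (blue), from the joint fit of all 18 libraries. Filled points are genes whose difference between the lines passed the threshold (24 of 40 and 18 of 22), and the dotted line marks equal change.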

How the data were processed

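RNA of 168FARN cells, sorted by GFP after coculture per the study's methods, was sequenced as 100-base paired reads. The authors trimmed reads with Trimmomatic, aligned them to mm10 with STAR and deposited whole-number counts per gene symbol from HTSeq. The methods then name a batch correction with ComBat-seq without saying for which data, so it is not known whether these counts were adjusted. Whether counting used strand is not given in the sources used here. Groups came from the sample labels. All 9 libraries of the line (3 alone, 3 WT, 3 sgPrrx1) entered 1 fit with no covariates in edgeR 4.0.16 under R 4.3.3, with filterByExpr, TMM scaling, the quasi-likelihood test and Benjamini-Hochberg adjustment over all 13540 genes tested (threshold 0.05, two-sided). The difference between the lines was an interaction term in a fit of all 18 libraries, whose 2 tables were counted separately. Counts of 48315037 to 68933002 per library set the precision, with 1 count worth at least 0.0156 CPM in cells alone.

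CPM were computed from the deposited counts and the TMM factors. Genes were named by the 6 largest changes in each direction and class among called genes with a mean of at least 100 counts and no overlap between groups (unnamed models, date names and pseudogenes passed over), by the extreme and the highest-level called members of each list, and as other list members. The gene lists, and the choice of this comparison, were made with earlier results of these data known. A fold against 0 used a floor of 3 counts per library, which covers counting error only. Promoters came from RefSeq (GRCm38.p6), and 99.4% of the symbols matched. Transcript lengths came from GENCODE vM1. Alternatives used DESeq2 1.42.0, limma 3.58.1, other scalings and filters, a replicate block, single libraries left out, and a length offset added after seeing the data. The scripts were tested on simulated data. A few genes that count in the lists are not reported here by name.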

Additional observations from a re-analysis of the deposited data

Results flagged for a closer look

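The change from WT to sgPrrx1 coculture differed between 168FARN and LLC1 for 5 of the leading genes, each by the interaction term of the joint edgeR fit. The change in 168FARN minus that in LLC1, on the log2 scale, was 2.75 for Ifit1bl1, 2.39 for Iigp1, 2.54 for Clec4d, -1.25 for Bgn and -2.65 for Col12a1. The lines also differed in the source of their fibroblasts, and these cannot be told apart. No outlier test was run on groups of 3 libraries.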

How the results depend on the processing

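With a minimum log2 fold change of 1, 838 genes passed (214 higher, 624 lower), and 91 in each direction among genes expressed alone. Of genes at or near 0 alone, 14 were higher and 124 lower with at least 10 counts in each coculture library, and 10 and 199 with 0 counts alone, where fewer genes were tested. Without LLC1 sgPrrx1 replicate 3, 6515 genes differed between the lines. Leaving out 1 coculture library at a time gave 7505 to 7794 genes in either direction (3319 to 3520 higher, 4106 to 4274 lower), 3181 to 3358 higher and 3552 to 3704 lower among genes expressed alone, and 17 to 20 higher and 335 to 351 lower among those at or near 0. With the length offset, chosen after seeing the data, the direction turned for Ldha (-0.00296), Atf4 (-0.0321), Tgfbr3 (0.0128) and Ftl1 (-0.119). The cause was not tested. Of the other values for named genes, 1865 kept their direction and side of the threshold and 67 lost the call. Of the counts for gene lists under these settings, 987 stayed within 1.5 times and 101 moved further. Same-numbered WT and sgPrrx1 libraries did not deviate together (mean r -0.0192, against 0.00965 for other numbers), so the numbers were not taken as pairs. A replicate block gave 8044 genes (3603 higher, 4441 lower), with 3461 and 3859 among genes expressed alone, 18 and 348 among those at or near 0, and 3170 differing between the lines.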

Other observations

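The proton pump subunit gene Atp6v0c and its near-identical pseudogene Atp6v0c-ps2 exchanged counts between libraries. Atp6v0c was at 239, 240.0 and 20.6 CPM with WT CAFs, while the 3 sgPrrx1 libraries gave 12.6, 11.1 and 239 CPM. The pseudogene was at 218 CPM in WT replicate 3 and at 229 and 228 CPM in sgPrrx1 replicates 1 and 2. Their sum was 238.6 to 241.5 CPM in all 6 coculture libraries. The counts of either copy alone are uncertain.

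For 72 genes with counts above 0, all 9 libraries listed an identical value. Of 10 tumour suppressor genes, 2 were higher (20%, beside 26.9% of all genes) and 4 lower (40%, beside 33.1%) in sgPrrx1 coculture, Cdkn2a and Cdkn2b among the latter.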
